A study of Mus musculus with 18 samples.

Results

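The leukocyte and matrix integrin loci comprised 10 genes: Itgal, Itgam, Itgax, Itgb2, Itga4, Itga5, Itga6, Itgav, Itgb1 and Itgb3. A locus was defined as the gene body (GENCODE M21, mm10) together with 50 kb on either side of the most upstream annotated start site. The 10 genes were taken from 21938 annotated protein-coding genes, and their loci held 194 of 82391 reference peaks, 122 of 59617 extended regions and 200 of 84660 summits. A reference peak is a stretch of open chromatin, an extended region joins widened neighbouring peaks, and a summit is the position of highest signal within a peak.

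Open chromatin was mapped by ATAC-seq, in which the Tn5 transposase inserts adapters into exposed DNA, in wild type mouse bone marrow-derived macrophages (BMDMs), that is, precursors of the marrow differentiated in culture. All cells, controls included, were first exposed to the vehicle DMSO for 1 h and then left untreated or given LPS, which activates Toll-like receptor signalling, or the cytokine IL4, each at 10 ng/mL, for 30 min, 1 h, 2 h or 4 h. There were 2 libraries in each of 9 groups (1 untreated, 4 with LPS and 4 with IL4), 18 in all. The lists were pooled over all libraries, so neither a stimulus effect nor a spread between replicates nor a depth could be obtained, and every value below describes a single catalog, without a test.

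Integrins are cell surface receptors made of an alpha and a beta chain, which hold cells to other cells and to the extracellular matrix and signal in both directions across the membrane. The beta 2 chain, encoded by Itgb2, is found on leukocytes, where it pairs with the chains of Itgal (LFA-1), Itgam (Mac-1, CD11b) or Itgax (CD11c) and binds ICAMs, complement fragments and fibrinogen. Itga4 pairs with Itgb1 or Itgb7 and binds Vcam1 and fibronectin, while Itga5 with Itgb1 forms the classical fibronectin receptor. Itga6 chains bind laminins, and Itgav chains, with Itgb3 among other partners, bind vitronectin and related proteins with an RGD motif. In macrophages these receptors serve adhesion, migration and phagocytosis.

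The sequences below show the PU.1/ETS matches at the start sites of Itgal, Itgb2 and Itgav, the cluster of such matches inside Itgax, and 4 windows with other motifs. PU.1, encoded by Spi1, is an ETS factor required for the macrophage lineage. All are from the plus strand of the reference genome (mm10), the strand on which these 6 genes are read, and capitals mark motif matches. Stretches that overlap an annotated untranslated exon were shortened to 30 bases around the match, and start site windows end at the base before the start site. The windows of Itgal and Itgav and the Itgax start site window were chosen after their matches had been seen.
Itgal, chr7:127296155-127296259, upstream of the start site, PU.1/ETS: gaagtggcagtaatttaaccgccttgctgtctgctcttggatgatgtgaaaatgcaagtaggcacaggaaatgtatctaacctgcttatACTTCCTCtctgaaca
Itgav, chr2:83724307-83724396, upstream of the start site, PU.1/ETS: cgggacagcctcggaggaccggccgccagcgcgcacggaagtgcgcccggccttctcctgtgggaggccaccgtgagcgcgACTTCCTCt
Itgb2, chr10:77530291-77530320, exon 1, PU.1/ETS: aatgtcactcaACTTCCTCctgggcgctga
Itgax, chr7:128133836-128133865, intron 8, PU.1/ETS matches side by side: ccaccACTTCCTCctgtaACTTCCTCttga
Itgax, chr7:128129346-128129546, upstream of the start site, STAT6 then AP-1: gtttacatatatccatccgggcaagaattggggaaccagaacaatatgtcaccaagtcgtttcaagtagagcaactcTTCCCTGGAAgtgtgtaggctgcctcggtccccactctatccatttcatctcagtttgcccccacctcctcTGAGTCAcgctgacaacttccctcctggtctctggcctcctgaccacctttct
Itgam, chr7:128089255-128089455, intron 12, PU.1/ETS, AP-1 and NF-kB in this order: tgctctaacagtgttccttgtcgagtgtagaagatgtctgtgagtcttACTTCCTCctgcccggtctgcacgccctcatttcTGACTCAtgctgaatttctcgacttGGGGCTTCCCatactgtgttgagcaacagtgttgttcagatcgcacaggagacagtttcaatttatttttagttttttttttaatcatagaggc
Itgam, chr7:128063420-128063620, intron 1, RUNX: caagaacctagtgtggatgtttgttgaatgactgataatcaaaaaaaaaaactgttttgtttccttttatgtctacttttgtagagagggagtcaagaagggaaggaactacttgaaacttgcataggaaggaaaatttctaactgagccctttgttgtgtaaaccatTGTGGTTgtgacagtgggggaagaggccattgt
Itgb3, chr11:104641007-104641207, end of coding exon 8 and start of intron 8, AP-1 in the exon: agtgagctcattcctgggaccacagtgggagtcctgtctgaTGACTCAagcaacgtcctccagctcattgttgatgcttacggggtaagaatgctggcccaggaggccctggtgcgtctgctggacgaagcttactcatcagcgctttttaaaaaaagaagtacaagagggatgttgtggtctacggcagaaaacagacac

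All 10 integrin genes had a reference peak within 1000 bp of an annotated start site, compared to 56.5% of all protein-coding genes. Of 52 distinct annotated start sites of the 10 genes, 34 (65.4%) lay inside a peak, against 35.1% of the start sites of all protein-coding genes. Start site peaks were likewise found at 10 of 10 macrophage marker genes (among them Csf1r, Adgre1, Cd68 and Spi1). Of 5 markers each, 2 T cell genes (Cd3d and Lck), 2 neutrophil genes (S100a8 and Camp), 2 mast cell or megakaryocyte genes (Pf4 and Itga2b) and 2 fibroblast or epithelial genes (Col1a1 and Pdgfra) had one. The B cell genes Pax5, Ms4a1 and Ebf1 had one as well. The best scores of these genes ranged from 402 (Pdgfra) to 1851 (Itga2b), with 1632 at Cd3d. At Cd3d, Lck, Pax5, Itga2b and Pdgfra, the peak was at another annotated start site than the most upstream one. From the latter, the nearest peak was 4705, 1709, 5878, 2742 and 4847 bp away, in this order. No start site peak was listed at Cd3e, Cd8a, Bcl11b, Cd79a, Ly6g, Elane, Mpo, Cpa3, Fcer1a, Gp9, Col3a1, Epcam and Krt8. Markers of other cell types were thus found on both sides. An open start site is not a measurement of transcription, and the part of other cells in these lists was not tested.

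The surroundings of the integrin genes were rich in open chromatin. The number of extended regions within 50 kb of the most upstream start site was 6 at Itgax, 8 at Itga4, 9 at Itga6, 10 at Itgb1, 11 each at Itgal, Itgam and Itgb2, 14 at Itgb3, and 18 each at Itga5 and Itgav. The median was 11, against 4 over all protein-coding genes (quartiles 1 and 8) and 7 over those with a start site peak. Each of the 10 genes was thus above the median of all genes, and Itgax was the only one below that of genes with a start site peak. Itga5 and Itgav, the alpha chains of the fibronectin and vitronectin receptors, were at percentile 99.7 of all protein-coding genes, Itgb3 at 97.4, and Itgax at 62.1. The windows also hold other genes: 26 of the 194 peaks (13.4%) lay outside the member gene with their best summit within 1000 bp of a start site of another gene, and such sites were also annotated inside Itgav.

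**Figure D1:**
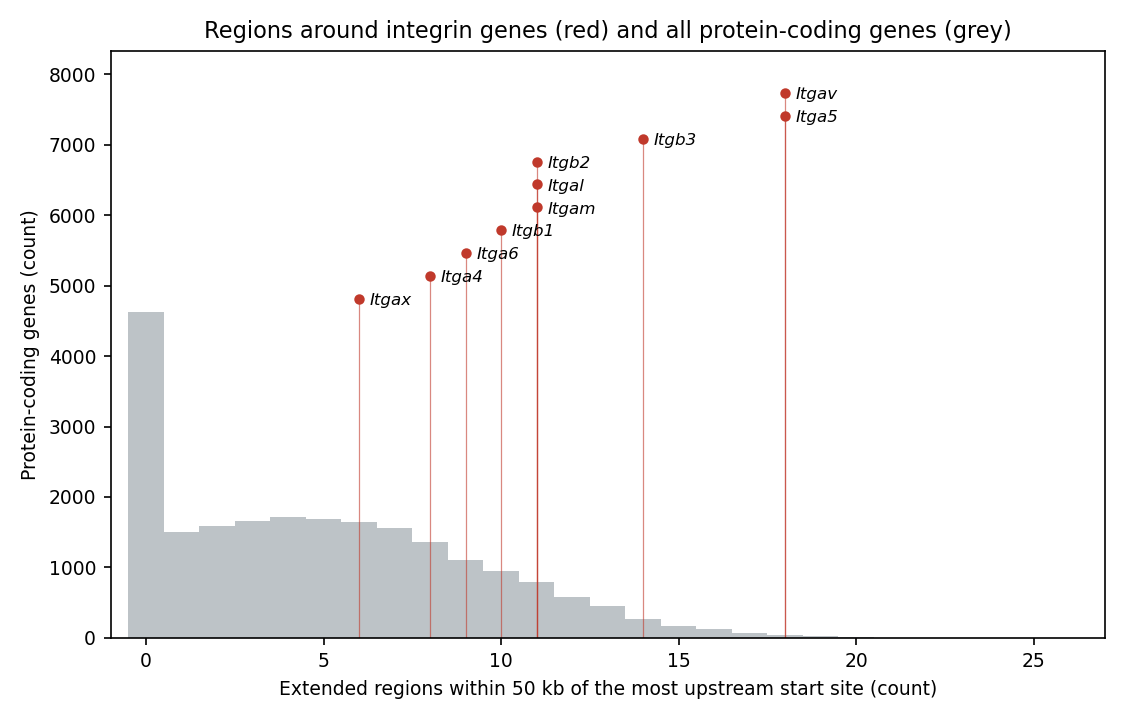
Number of extended regions within 50 kb of the most upstream start site (horizontal axis) of all 21938 protein-coding genes (grey bars, number of genes) and of the 10 integrin genes (red points, whose height serves only to separate the names). The integrin genes lie between 6 and 18, above the median of 4 over all genes.

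Peaks were also dense inside the genes. Over the gene body, the 10 integrin genes had a median of 1.79 peaks per 10 kb, against 0.462 over the 10159 protein-coding genes of at least 20 kb. Itga5 had 4.0, Itgav 2.3, Itgb2 2.26, Itgb3 2.08 and Itgax 1.89 peaks per 10 kb, all at or above percentile 92.9 of those genes, whereas Itgal had 0.772 (percentile 65.9) and Itgam 0.895 (percentile 71.4). The single peaks were ordinary in size: their median score was 727 (range 154 to 2140) and their median width 225.5 bp (range 5 to 1196 bp), compared to 737 and 227 bp over the whole list. The score is the value deposited with each summit, has no stated unit and serves here only for order.

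By position, 26 peaks (13.4%) were at a start site of the integrin gene itself, 63 (32.5%) in one of its introns, and 7 (3.61%) in the gene but outside its longest coding transcript. Of the others, all outside the member gene, 26 were at a start site of another gene, 8 (4.12%) inside another protein-coding gene and 64 (33%) outside any protein-coding gene. The median score was 985 for own start site peaks, 695.5 elsewhere in the gene and 613 outside any protein-coding gene, with ranges that overlapped (315 to 1877, 154 to 1942 and 234 to 2140). The highest score of all, 2140, lay outside, 3884 bp upstream of Itga5. At the outer limits, the peak nearest to a limit from inside was 55 bp within the Itgal locus (score 1071), and the nearest from outside was 80 bp beyond the Itga5 locus (score 695).

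**Figure D2:**
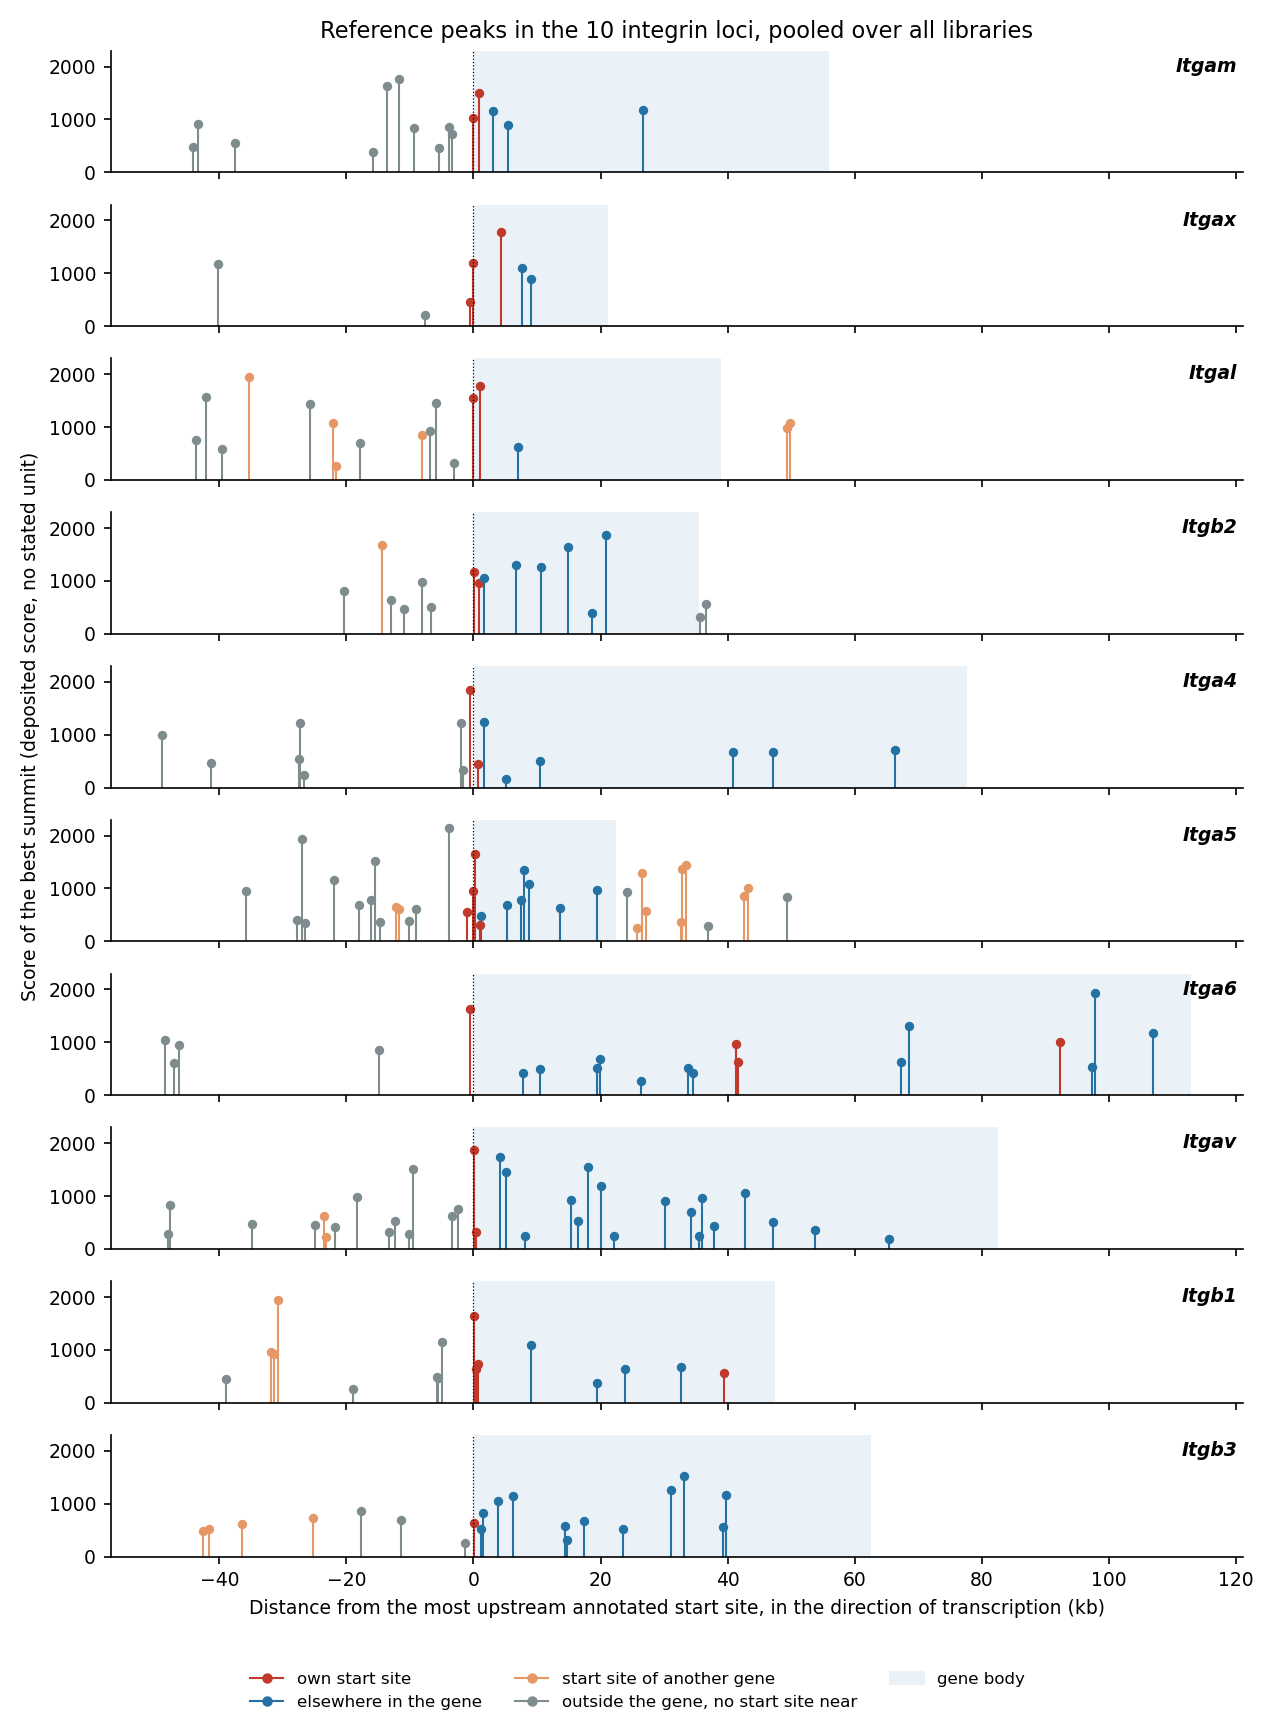
Reference peaks of the 10 integrin loci by distance from the most upstream annotated start site in kb (horizontal axis, positive in the direction of transcription) and by the score of the best summit (vertical axis, deposited score without a unit). The light band is the gene body, and colours give the position of each peak. Itga5 had 36 peaks and Itgax 7, and at Itgal no peak was listed between 7.06 and 49.3 kb.

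Itgb2, the beta chain shared by the leukocyte integrins, lies on chr10:77530252-77565708 (plus strand). Its locus held 16 peaks, of which 8 were in the gene. The start site peak scored 1164 (269 bp wide), lower than 4 peaks further into the gene. These were 1308 at 6686 bp and 1260 at 10682 bp in intron 1, 1632 at 14868 bp in intron 3, and 1877 at 20866 bp in intron 8. The highest scores of the gene were thus away from its start site, while a peak in intron 6, at 18593 bp, had only 384. Intron 1 held 4 peaks in all. Of the 6 peaks upstream, the highest (1683) was at the start site of the neighbouring gene Fam207a. The start site window had 2 matches: PU.1/ETS from 50 to 57 bp and RUNX from 124 to 130 bp downstream of the start site. The window at the peak of 1877 had none of the 11 motifs searched.

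Itgal, the alpha chain of LFA-1, lies on chr7:127296260-127335138 (plus strand). A peak 5 bp upstream of its start site scored 1556 and another 1071 bp downstream, in intron 1, scored 1773. The PU.1/ETS match shown above spans the bases 16 to 9 upstream of the start site. Beyond a peak of 623 in intron 7, 6997 bp from the start site, no peak was listed for 42.2 kb, which covers most of the gene. The 5 bp peak included, 13 of the 17 peaks lay upstream of the start site. Among them were start site peaks of Dctpp1 (1955), Sephs2 (1082 and 258) and the non-coding gene Gm31897 (856), and peaks of 1568 (558 bp wide, inside Zfp771) and 1456 (5845 bp upstream).

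Itgam, the alpha chain of Mac-1 and a common marker of myeloid cells, lies on chr7:128062640-128118491 (plus strand). The peak over its start site scored 1036 and was surpassed by a peak of 1493 in intron 1, 880 bp downstream, whose window holds a RUNX match. The largest scores were upstream: 1760 at 11721 bp (455 bp wide) and 1632 at 13633 bp (431 bp wide), the latter with a PU.1/ETS and a RUNX match, the former with none. All 10 upstream peaks were outside any protein-coding gene. Inside the gene, peaks of 1164 and 889 in intron 2 each had a PU.1/ETS match. The protein-coding gene Gm49368 overlaps Itgam, and the peaks in introns 1, 2 and 12 lie in both.

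A single peak belonged to 2 loci. It lies in intron 12 of Itgam, 26715 bp from the Itgam start site and 40192 bp upstream of the Itgax start site (score 1176, 341 bp wide), and its window combines PU.1/ETS, AP-1 and NF-kB matches within the stretch printed above. A PU.1/ETS and an AP-1 match together were found at 2 of the 200 summits (1%) and at 1.02% of all summits. To which of the genes, if any, this peak relates was not tested.

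Itgax, which encodes the alpha chain CD11c, lies on chr7:128129547-128150657 (plus strand), next to Itgam, and had the fewest peaks, 7. The peak over the start of its coding transcripts scored 1188, with its summit 101 bp upstream and with STAT6 and AP-1 matches. The highest peak, 1773, was in intron 8, 4277 bp downstream. It counts as a start site peak only because a transcript with a retained intron is annotated 982 bp further on. This window holds 3 PU.1/ETS matches, at 4294 to 4301, 4307 to 4314 and 4323 to 4330 bp from the start site. At least 3 such matches were found at 1 of the 200 summits, this one, and at 22 of all 84660 (0.026%). The limit of 3 was taken from this window, so the count in the loci was set by the choice. The bases also belong to the 3' untranslated exon of a short annotated Itgax transcript.

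Itga4, the alpha chain of VLA-4, lies on chr2:79255426-79333123 (plus strand). Its start site peak was the widest of all loci, with 1196 bp (percentile 99.9 of start site peaks) and 3 summits, and scored 1851. A peak of 1224 was found 1937 bp upstream and one of 1248 at 1721 bp in intron 2. Further into the gene, no peak was listed for 30.2 kb between 10.5 and 40.7 kb, and the 3 peaks of the later introns scored 675, 675 and 706. The lowest score of all loci (154) was also in Itga4, at 5058 bp in intron 2. The wide start site peak had a PU.1/ETS match.

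The matrix receptor Itga5, on chr15:103344286-103366763 (minus strand), had 36 peaks, the most of all loci when those of neighbouring genes are counted. Of these, 10 were outside Itga5 at start sites of other genes and 3 inside another gene. The start site peak scored 1657, with its summit in exon 1, 189 bp downstream, and an AP-1 match. In the gene itself were 9 peaks, 4 of them in intron 1 and 4 in later introns. Upstream, 16 peaks spread over 35797 bp and included the 2140 named above, which has an AP-1 match, 1929 at 27019 bp (504 bp wide) and 1518 at 15502 bp. Downstream of the gene, 8 peaks were at start sites of Zfp385a, with scores from 250 to 1443. The longest stretch between neighbouring peaks was 7.77 kb, the shortest such maximum of the 10 loci. The 14203 bp from the last upstream peak to the limit of the locus held no peak either.

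Itgav, the alpha chain of the vitronectin receptor, lies on chr2:83724397-83806916 (plus strand). The peak over its start site had the highest start site score of the 10 genes, 1877 (percentile 80.4 of 12402 protein-coding genes with a start site peak), with the summit 10 bp downstream and a PU.1/ETS match from 9 to 2 bp upstream. A total of 19 of its 33 peaks were in the gene, of which 17 were in introns. The highest were 1747 and 1456 in intron 1 (at 4122 and 5156 bp) and 1556 in intron 2 (at 18006 bp, with an AP-1 match). Towards the end of the gene the scores were low, 358 in intron 13 and 189 in intron 18. AP-1 matches were found at 10 of 34 summits and PU.1/ETS matches at 6, against 15.9% and 9.08% of all summits. This locus and these motifs were singled out after the counts were seen. AP-1 was below the share of the whole list at Itgal (1 of 19), Itga4 (1 of 17), Itga5 (4 of 36) and Itgb1 (2 of 17), and above it at the remaining loci. Upstream, the best peak scored 1518, at 9463 bp, with AP-1 and ETS-IRF matches.

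Itgb3, the beta chain that pairs with Itgav, lies on chr11:104608000-104670476 (plus strand) and had the lowest start site score, 644 (percentile 7.33), from a single start site peak with its summit 98 bp downstream in exon 1. The start site itself was just outside this peak. The introns held 12 peaks, 6 of them in intron 1. Scores above that of the start site included 823 at 1519 bp, 1059 at 3805 bp and 1153 at 6303 bp in intron 1, and 1260 in intron 6 and 1518 in intron 8. The last, at 33107 bp, was the highest of the locus and had an AP-1 match, which lies in the coding exon just before this intron. RUNX matches were found at 6 of the 20 summits (7.91% of all summits of the list had one), a locus and motif singled out after the counts were seen. With only peaks at or above the median score of the list, Itgb3 was the single gene to lose its start site peak.

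Itgb1, the beta chain shared by many matrix receptors, lies on chr8:128685654-128733200 (plus strand). Its start site peak scored 1644 (475 bp wide, summit 37 bp downstream) and had SP/KLF matches (53 to 61 and 58 to 66 bp downstream, overlapping). A peak of 1942 (694 bp wide, with a PU.1/ETS match) stood 30682 bp upstream, 659 bp from a start site of the annotated gene Gm45746. Elsewhere the highest scores were 1141, 4928 bp upstream, and 1094 in intron 1. The narrowest peak of all loci, 5 bp, was listed in intron 1 at 454 bp.

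Itga6, a laminin receptor chain, lies on chr2:71745616-71858416 (plus strand) and is annotated with start sites far apart. The most upstream site belongs to a non-coding transcript. A peak of 1632 with a PU.1/ETS match lay 621 bp upstream of it. The coding transcript with the longest reading frame starts 41324 bp further on, where a peak of 968 with an SP/KLF match covered the start site. The highest score, 1942 (412 bp wide), was in intron 21, and 1308 was reached in intron 2. AP-1 matches were found at 5 of 20 summits, against 15.9% of all summits, a locus and motif also singled out after the counts were seen.

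Ordered by the best start site score, Itgb3 (644) and Itgb2 (1164) were lowest, followed by Itgam (1493), Itga6 (1632), Itgb1 (1644), Itga5 (1657), Itgal and Itgax (both 1773), Itga4 (1851) and Itgav (1877). The median was 1650.5, against 1456 over the 12402 genes with a start site peak (quartiles 1071 and 1799). Without values per library it cannot be said which neighbours in this order differ beyond their error. The order of some genes depended on the distance allowed: within 500 bp, Itgam had 1036 and Itgax 1188, and within 2500 bp, Itgb3 had 1260. It also depended on the start site used. At the start of the longest coding transcript, Itga6 had 968 (percentile 19.7) and Itgax 1188 (percentile 32.4), and 6 of the 10 genes were above the median of 1456. This median and these percentiles still use the best score over any start site of each gene, so the comparison is not like for like.

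**Figure D3:**
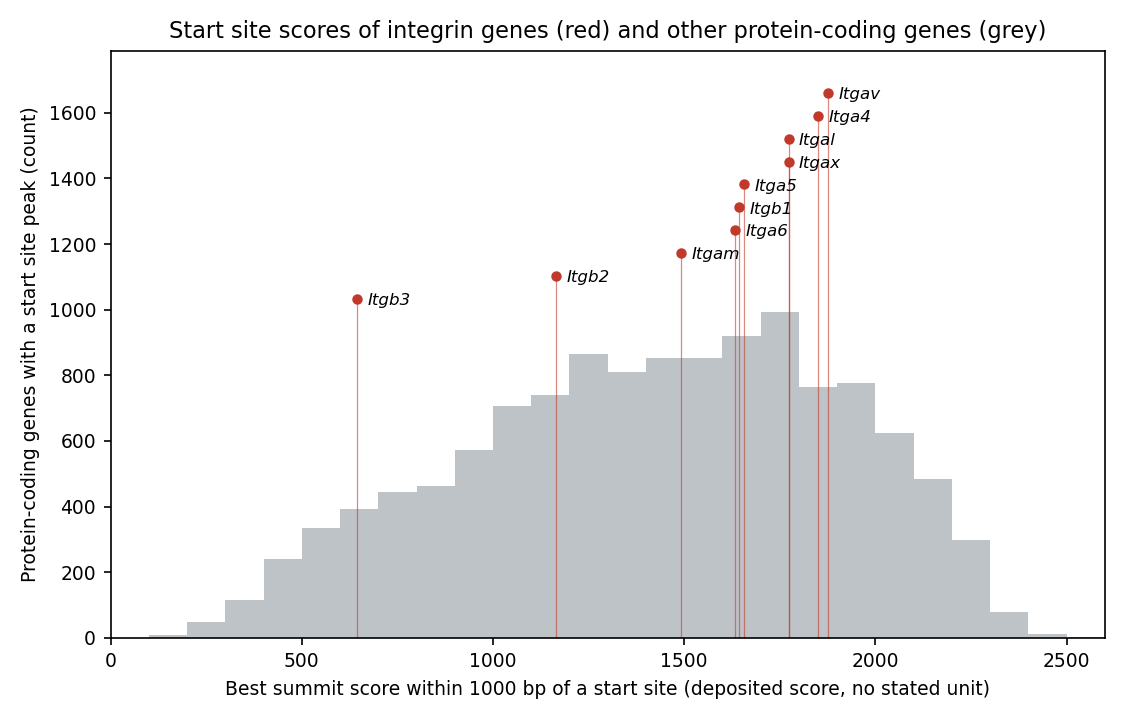
Best summit score within 1000 bp of a start site (horizontal axis, deposited score without a unit) of the 12402 protein-coding genes with a start site peak (grey bars, number of genes) and of the 10 integrin genes (red points, whose height serves only to separate the names). Itgb3 (644) and Itgb2 (1164) lie below and the other 8 above the median of 1456. At the start of the longest coding transcript, Itga6 (968) and Itgax (1188) would lie below this median too, which itself uses the best start site of each gene.

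The start sites fell into different kinds by base composition. The observed over expected number of CpG dinucleotides in the 500 bp on each side of the most upstream start site was 0.219 at Itgam, 0.239 at Itgax, 0.244 at Itgb2 and 0.309 at Itgal, all at or below percentile 12.5 of genes with a start site peak. The median of those genes was 0.719. Itga4 had 0.466, Itga5 0.637, Itgb3 0.691, Itgav 0.853 and Itgb1 0.928 (percentile 90.4). The 4 chains of the leukocyte integrins were therefore all lower than these 5 genes. Itga6 had 0.163 at its non-coding upstream start but 0.884 at the start of its longest coding transcript. CpG content and start site score did not run in parallel among the members: Itgal was CpG-poor with a score of 1773, while Itgb3 had 0.691 and the lowest score.

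**Figure D4:**
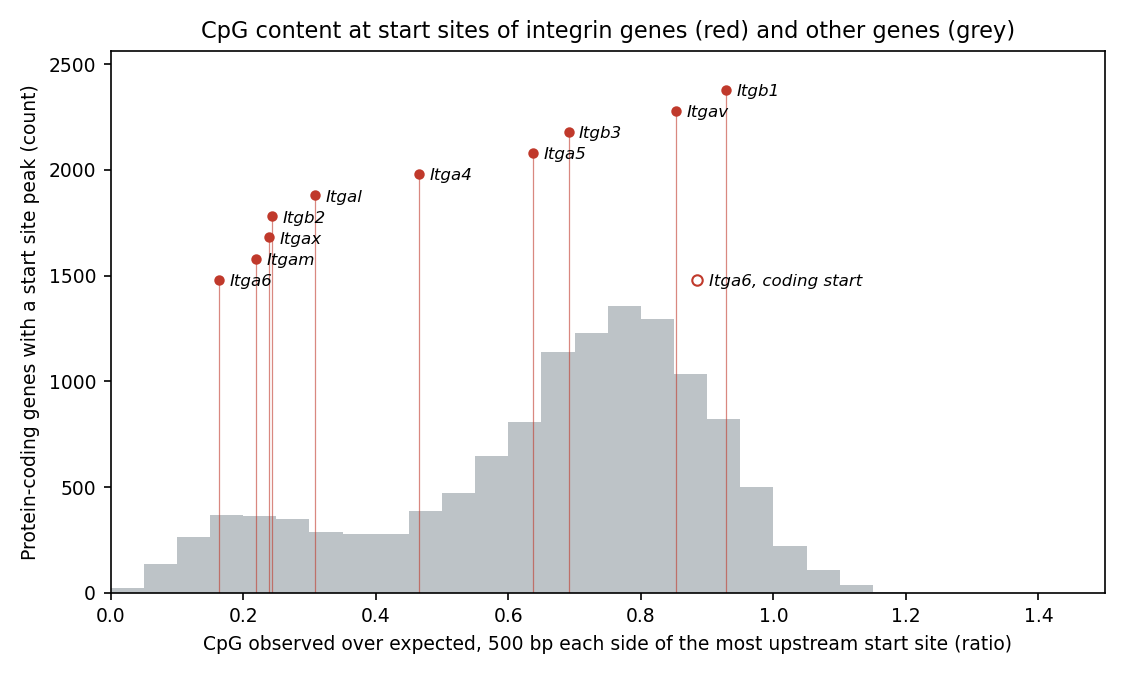
Observed over expected CpG in the 500 bp on each side of the most upstream start site (horizontal axis, ratio) for the 12402 protein-coding genes with a start site peak (grey bars, number of genes) and the 10 integrin genes (red points, whose height serves only to separate the names). The open circle is the coding start of Itga6 (0.884), and Itgam, Itgax, Itgb2 and Itgal lie between 0.219 and 0.309.

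Short sequence motifs were counted within 100 bp of the 200 summits, on both strands. A match describes the sequence and shows no binding, and its absence says nothing about a factor. PU.1/ETS (GAGGAAGT) was found at 25 summits (12.5%, 95% Wilson interval 8.61 to 17.8), against 9.08% of all summits. AP-1 (TGACTCA) was found at 34 (17%, 12.4 to 22.8), against 15.9%. For both, the value of the whole list was inside the interval, which covers counting error only, and the same held for the other 9 motifs. With only the best summit of each of the 122 extended regions, PU.1/ETS was found at 19 (15.6%, 10.2 to 23), against 10.1% of all regions, which is just below the interval. Among summits over 1000 bp from any start site, it was found at 17 of 141 (12.1%, 7.67 to 18.5), against 10.7%, which is inside.

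RUNX (TGTGGTT) was found at 16 summits (8%, against 7.91% of all), STAT6 (TTCNNNNGAA) at 13 (6.5%, against 6.81%), ETS-IRF (GGAANNGAAA) at 9 (4.5%, against 4.61%) and NF-kB at 8 (4%, against 5.55%). IRF (GAAANNGAAA) was found at 5 (2.5%, against 3.64%), SP/KLF (GGGGCGGGG) at 5 (2.5%, against 4.46%), CTCF (CCNNNAGGGGGC) at 2 (1%, against 1.83%) and CRE (TGACGTCA) at 1 (0.5%, against 0.938%). The C/EBP motif (TTGCGCAA) was found at 0 of the 200 summits, a count that permits up to 1.5%, against 0.169% of all. Any of the 11 motifs was present at 96 summits (48%) and at 48.9% of the whole list. The ETS-IRF and IRF motifs share letters and can overlap. Sequence more than 50% of which was marked as repeat made up 17 windows (8.5%), against 6.15% of all.

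**Figure D5:**
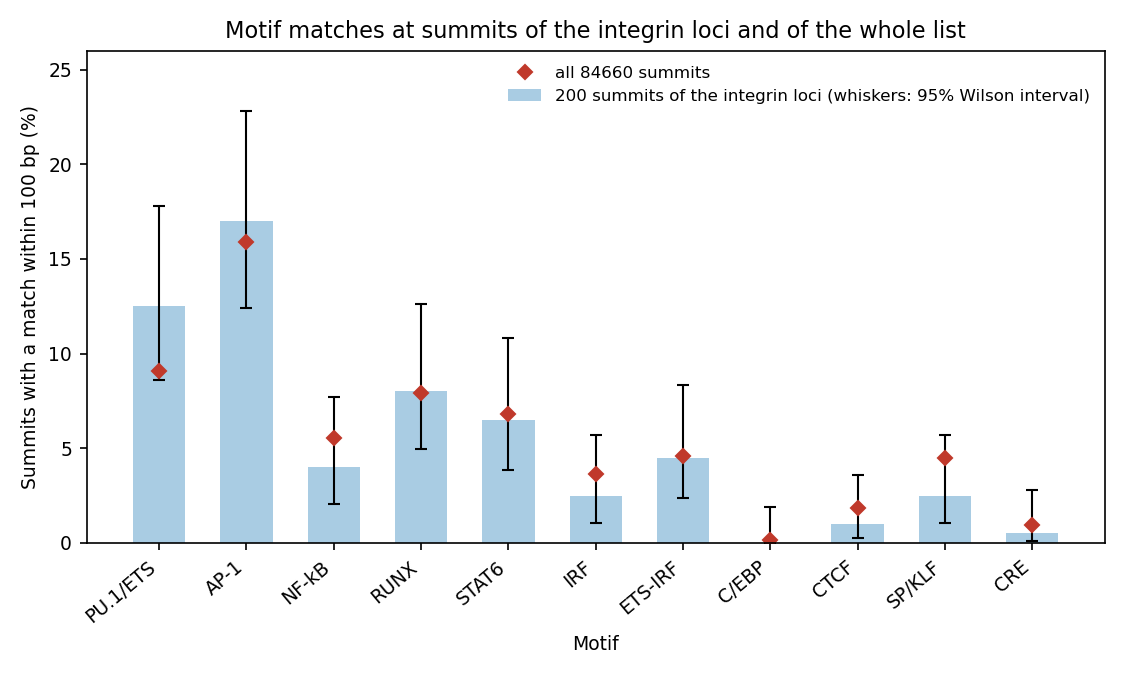
Share of summits with a motif match within 100 bp (vertical axis, percent) for 11 motifs (horizontal axis). Blue bars are the 200 summits of the integrin loci with 95% Wilson intervals, and red diamonds are all 84660 summits. Each diamond lies within its interval, as for PU.1/ETS with 12.5% and 9.08%.

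Other genes of the integrin system were set beside the members. Of 16 other integrin genes on a list from general knowledge, which does not hold every annotated one (Itgb2l is missing), 7 (43.8%) had a start site peak: Itga1, Itga2b, Itga8, Itga9, Itgb5, Itgb7 and Itgb8. The 9 without one were Itga2, Itga3, Itga7, Itga10, Itga11, Itgad, Itgae, Itgb4 and Itgb6, which include the epithelial chains Itgb4 and Itgb6 and the leukocyte chains Itgad and Itgae. The median number of regions of the 16 genes was 5.5, compared to 11 for the members, 9 for the cytoplasmic partners below and 11 for the macrophage markers above. The median start site score of the macrophage markers was 1689.5, next to 1650.5 for the members. The share with a start site peak is to be read against the 56.5% of all protein-coding genes.

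Of 27 genes for cytoplasmic partners of integrins, 23 (85.2%) had a start site peak, against 56.5% of all protein-coding genes. They included Tln1 (talin, score 1825), which binds the beta chain tail, Pxn (paxillin, 1838), and Zyx (zyxin, 2166). The 4 without one were Tln2, Fermt1, Fermt2 and Parva, while the paralogs Tln1, Fermt3 (the kindlin of blood cells), Parvb and Parvg had one. Of 16 ligand genes, 10 (62.5%) had a start site peak, a share near the 56.5% of all genes. Among them were Icam1, Vcam1, Fn1 (583) and Spp1 (osteopontin, 1308). The ligands without one were Vtn, Fga, Fgb, Fgg, Jam3 and Cdh1, of which vitronectin and the fibrinogen chains are plasma proteins of the liver. Some of these peaks also lie at the start of another annotated gene. This holds for each gene given here with a score: Tln1 with Creb3, Pxn with Gm13840, Zyx with Gm44284, Fn1 with Apol7d and Spp1 with Gm42793.

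The protein-coding genes most like Itgb2 in number of regions, start site score and start site width were Msr1, Ldlrad3, Nudt22, Trpt1 and Elmo1. Msr1, a scavenger receptor of macrophages, was nearest, with 11 regions, a score of 1176 and a width of 278 bp. Likeness was measured as the sum of the differences in percentile over these 3 quantities, which was 2.88 for Msr1 and 4.18 for Elmo1, in 1 pooled catalog.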

How the data were processed

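ATAC-seq libraries were made from BMDMs and sequenced as single-end reads. According to the study's methods and the submitters' processing notes, reads were freed of adapters by the authors (BBDuk), trimmed (Trimmomatic 0.39), mapped to mm10 (ShortStack) and filtered (SAMtools 1.9). Peaks were called with MACS2 2.2.6 without a shift model or local background and with duplicates kept. According to the paper, the reference set kept only peaks that passed a strict q-value limit and overlapped between replicates. A site without a listed peak may thus have failed this filter. The sources mention no shift of reads to the Tn5 cut, so summits may be displaced from the insertion maximum, and PCR copies can add to a peak. The deposited files are 3 BED lists pooled over all libraries: positions of reference peaks and extended regions, and summits with a score that the authors deposited without a stated scale. With 0 columns per library, no depth, replicate comparison or test was possible.

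Peaks, regions and summits were assigned by position to GENCODE M21 genes. Sequence was read from GRCm38.p6, whose chromosomes contained all entries of the lists on 21 of 21 chromosomes. A start site peak overlaps the 1000 bp around any annotated start site. A percentile ranks a gene among protein-coding genes. Intervals are Wilson's at 95%, and the limit for a count of 0 uses 3 counts. Motifs with variable positions (NF-kB, STAT6, IRF, ETS-IRF, CTCF) were searched as degenerate consensus sequences. Python 3.11.15, numpy 2.4.6, scipy 1.17.1 and pysam 0.24.0 were used, and the assignment was tested on simulated data. For each member the text names the best start site peak and the best peaks elsewhere. Sequences shown are those of the best start site summit, the best distant summit (for Itgax, the one in intron 12 of Itgam) or, for Itgal, Itgav and the Itgax start site, the summit nearest to the most upstream start site, and the lists of partners, ligands and markers come from general knowledge. The value of 1 B cell marker is not reported here. The members and lists were chosen with earlier results of these data known. Alternatives comprised other windows (20 and 100 kb, 500 and 2500 bp, 50 and 200 bp around summits), start site sets, score filters and region types.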

Additional observations from a re-analysis of the deposited data

How the results depend on the processing

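The counts scaled with the window. The median number of regions around the 10 genes was 6 within 20 kb and 17.5 within 100 kb, compared to 11 within 50 kb (all protein-coding genes: 2, 9 and 4). The number of peaks in the loci was 92 in the gene bodies alone and 96 at or above the median score, instead of 194. The share of summits with a CTCF match over that of the whole list was 0.546, and that for SP/KLF 0.561. Both were 0 when only the 141 summits over 1000 bp from any start site were used, which allows up to 2.13% for each. Over all such summits of the list, the shares were 1.64% for CTCF and 1.03% for SP/KLF, both below this limit. The other values for the 10 genes together stayed within 1.5 times of the reported value, or within its Wilson interval, under the alternatives run. For PU.1/ETS, the share of the whole list was inside the interval of the loci for all summits (9.08%, 8.61 to 17.8) but just below it for the best summit of each region (10.1%, 10.2 to 23). It was inside for summits over 1000 bp from any start site (10.7%, 7.67 to 18.5). Of the values for single genes, 37 stayed within 1.5 times and 33 did not. The start of the longest coding transcript, an alternative chosen after seeing the data, gave a median start site score of 1568.5 and a median of 11 regions.

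The lists hold no values per library, and no replicate was left out. No paired analysis was possible because the lists are pooled over all libraries. Differences in depth or in the number of peaks between stimuli and time points cannot be seen, and peaks are assigned by distance, which does not show which gene they relate to.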
